A study of Mus musculus with 6 samples.

Results

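The proteasome is the protease complex that destroys proteins tagged with ubiquitin, and its gene set was examined here in bone marrow progenitors of mice with and without experimental gum disease. The set was every gene of the deposited table whose symbol began with Psma, Psmb, Psmc, Psmd, Psme, Psmf or Psmg followed by a number, without Psmb8, Psmb9 and Psmb10, the catalytic subunits of the immunoproteasome. The rule used symbols and no measured value, and it found 47 of the 16403 genes. Of these, 16 were genes of the core particle (Psma, Psmb), 20 of the regulatory particle (Psmc, Psmd), and 10 were Psme, Psmf and Psmg genes, which encode activators, an inhibitor and core assembly factors and include Psme2b, a near copy of Psme2 that is not an established subunit. Psmc3ip was the remaining match: it encodes a partner of the meiotic recombination machinery and no proteasome subunit, so it was kept apart.

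The core particle is a barrel of stacked rings, with alpha subunits (Psma) forming the outer rings that gate the entrance and beta subunits (Psmb) forming the inner rings that hold the cutting sites. The regulatory particle caps the barrel: its ATPases (Psmc) unfold the substrate, and its other subunits (Psmd) bind ubiquitin, remove it and hold the complex together. Hematopoietic stem cells are known for a low rate of protein synthesis and for their dependence on protein quality control, in which the proteasome clears damaged and short-lived regulatory proteins.

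Bulk RNA sequencing was done on 6 libraries of LSK cells from the bone marrow of C57BL/6 mice, and the labels name no genetic modification or drug. LSK cells carry Sca-1 and Kit but no lineage markers, and this sorted fraction holds the stem cells and early multipotent progenitors. The LIP group had 3 libraries from mice carrying a ligature around teeth for 7 days, which induces periodontitis, and the NL group had 3 libraries from mice without a ligature. Each library was made from the pooled cells of 3 mice, so the spread between libraries is a spread between pools.

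Library totals were 17780853 to 18841103 estimated counts, and 3 counts corresponded to 0.157 to 0.171 CPM (counts scaled to the library total and TMM factors), a floor for counting error only. Of the genes that mark the sort and early progenitors, 0 of 8 were called lower and 1 was called higher (Kit, log2 fold change 0.18), and Ly6a, which encodes Sca-1, was at -0.07 (edgeR, adjusted p = 0.386). Markers of other blood cells were detected and moved with the groups. The summed neutrophil markers were at 223 to 239 CPM in NL and 317 to 340 CPM in LIP, with 8 of 10 tested markers called higher. The monocyte and macrophage sum was at 668 to 685 CPM in NL and 844 to 877 CPM in LIP (6 of 9 higher, 1 lower), and the B lineage sum at 72.9 to 74.9 CPM against 91.2 to 94.7 CPM (6 of 9 higher). The erythroid sum was lower in LIP, at 1082 to 1135 CPM against 1228 to 1262 CPM (4 of 9 lower, 1 higher). Car2 and Car1 made up most of this sum, with means of 760 and 299 CPM in NL and 663 and 270 CPM in LIP. Over the 9 erythroid markers the median log2 fold change was 0.05, with 5 above 0 and 4 below. Megakaryocyte (2 of 5), T and NK cell (2 of 6), dendritic (2 of 6) and mast cell, basophil and eosinophil markers (3 of 6, with 2 lower) were called higher in part. No marker was at 0 in all 6 libraries, and their part in the proteasome results below was not tested. In bulk libraries, fewer cells of a type and less RNA per cell cannot be told apart.

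Of the 46 proteasome-pattern genes that could be tested, 25 were lower in LIP, 1 was higher and 20 did not pass the test. Among all 12564 tested genes, 29.9% were called, 15.8% lower and 14.1% higher, at an adjusted p below 0.05 in edgeR's quasi-likelihood test with Benjamini-Hochberg adjustment. The core particle accounted for most of the falls: 14 of its 15 tested genes fell and 0 rose, with a median log2 fold change (LIP over NL) of -0.16, a median decrease of 10.7%. In the regulatory particle 8 of 20 genes fell and 0 rose, with a median of -0.08. No gene of either part was higher at an unadjusted p below 0.05 either, in edgeR, and DESeq2 and limma-voom called 0 higher in each. The other 10 genes had 3 falls, 1 rise and a median of -0.03, and the median over all tested genes was -0.0007. All 3 LIP libraries lay below all 3 NL libraries for 13 of the 15 core genes and for 10 of the 20 regulatory particle genes, against 21.0% of all tested genes.

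**Figure D1:**
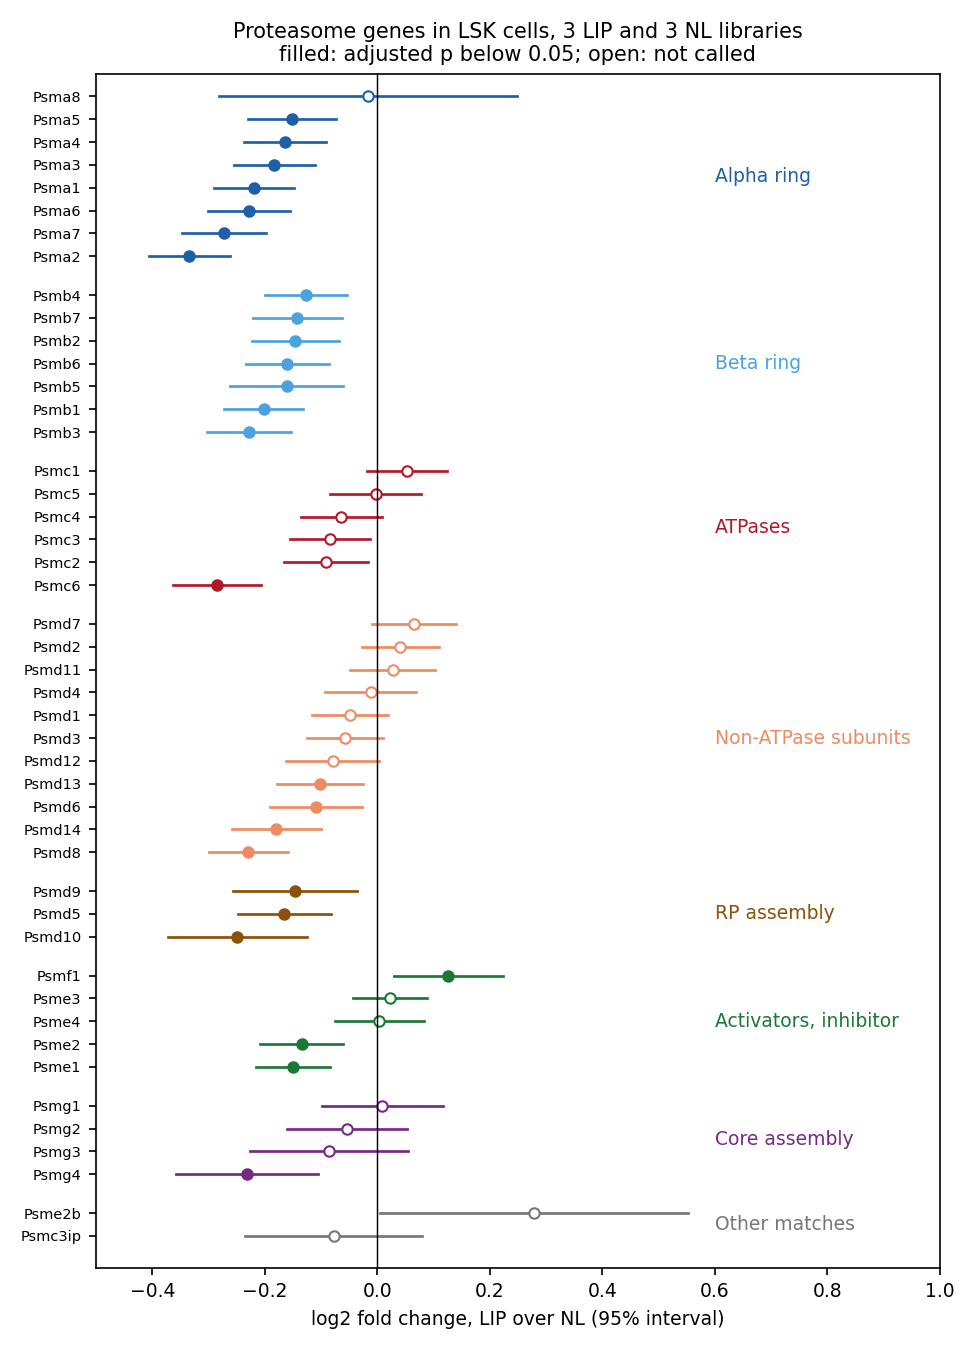
Log2 fold change (LIP over NL, horizontal axis) of each tested gene of the set with its 95% confidence interval, by part of the complex, from 3 libraries per group; fill marks the genes that passed the test. The core genes sit left of 0, from -0.33 to -0.02, and the regulatory particle genes spread from -0.28 to 0.06.

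Seen library by library, the shift of the core genes was shared by all 3 LIP pools. The median core gene deviated from its NL mean by -0.03, 0.02 and 0.01 (log2) in the 3 NL libraries and by -0.18, -0.18 and -0.15 in the 3 LIP libraries. For the regulatory particle the medians were -0.03, 0.01 and 0.02 in NL and -0.07, -0.09 and -0.11 in LIP. In both parts each LIP library lay below each NL library, with medians further apart for the core, and whether the parts differ in this was not tested.

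**Figure D2:**
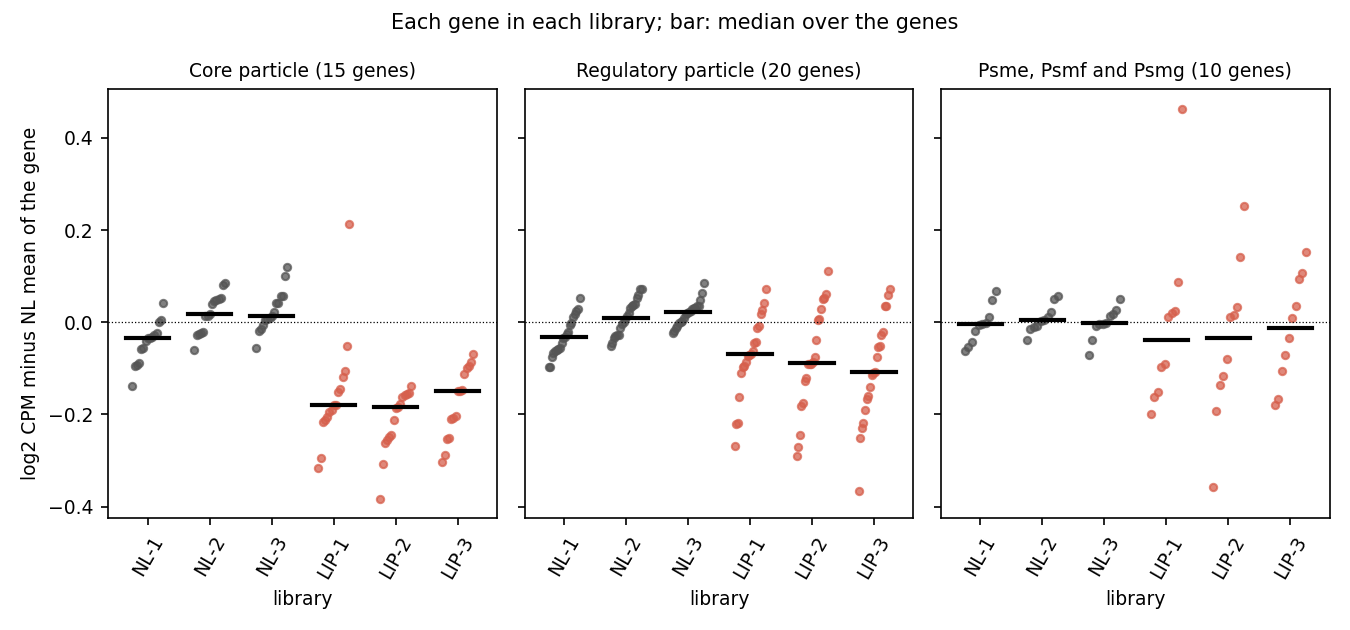
Deviation of each gene from its NL mean (log2 CPM, vertical axis) in each of the 6 libraries, for the core particle, the regulatory particle and the other genes, with a bar at the median. The core medians are at -0.18 to -0.15 in the LIP libraries, and the regulatory particle medians at -0.11 to -0.07.

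Promoters of the set were read because 25 of its genes fell and because the stress response factor NRF1 (Nfe2l1) raises proteasome genes through antioxidant response elements. The sequences show the promoters of Psma2, Psma7 and Psmc6, whose calls held under every alternative run, and of the catalytic subunits Psmb5 and Psmb6, which hold an element close to the start. Each is the 250 bases before a RefSeq start (build GRCm38.p6), written 5′ to 3′ on the gene's strand. Capitals mark matches, on either strand, to TGACNNNGC, the element, or to CCAAT, the box bound by NF-Y. Psma2 lies on the plus strand at chr13:14612992-14613241, Psma7 on the minus strand at chr2:180042465-180042714 and Psmc6 on the plus strand at chr14:45329574-45329823. Psmb5 lies on the minus strand at chr14:54617996-54618245 and Psmb6 on the plus strand at chr11:70525107-70525356.
Psma2: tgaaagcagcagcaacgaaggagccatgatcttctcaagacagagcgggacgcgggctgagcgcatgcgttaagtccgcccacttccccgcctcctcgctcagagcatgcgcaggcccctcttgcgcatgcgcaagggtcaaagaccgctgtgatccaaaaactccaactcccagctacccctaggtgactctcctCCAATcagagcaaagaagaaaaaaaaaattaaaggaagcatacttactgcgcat
Psma7: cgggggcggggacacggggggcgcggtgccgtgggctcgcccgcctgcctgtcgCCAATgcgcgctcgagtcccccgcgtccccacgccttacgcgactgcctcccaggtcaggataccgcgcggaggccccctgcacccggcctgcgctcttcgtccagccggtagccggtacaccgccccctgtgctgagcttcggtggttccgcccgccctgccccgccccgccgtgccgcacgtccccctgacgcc
Psmc6: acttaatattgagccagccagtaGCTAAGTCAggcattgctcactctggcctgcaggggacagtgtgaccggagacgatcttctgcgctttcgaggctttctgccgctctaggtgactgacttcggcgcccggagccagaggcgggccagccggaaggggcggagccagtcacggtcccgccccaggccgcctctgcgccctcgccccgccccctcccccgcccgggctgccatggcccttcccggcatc
Psmb5: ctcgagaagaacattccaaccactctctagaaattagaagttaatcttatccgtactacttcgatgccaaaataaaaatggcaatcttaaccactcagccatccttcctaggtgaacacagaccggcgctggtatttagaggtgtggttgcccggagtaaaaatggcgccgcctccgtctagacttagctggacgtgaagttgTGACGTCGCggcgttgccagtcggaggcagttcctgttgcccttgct
Psmb6: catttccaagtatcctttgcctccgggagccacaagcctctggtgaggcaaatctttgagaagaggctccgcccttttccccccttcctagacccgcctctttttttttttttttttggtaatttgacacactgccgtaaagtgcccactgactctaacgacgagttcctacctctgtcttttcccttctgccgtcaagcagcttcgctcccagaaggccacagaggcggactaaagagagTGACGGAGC

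In these windows TGACNNNGC began 47 bases before the start of Psmb5 (TGACGTCGC) and 9 bases before that of Psmb6 (TGACGGAGC). On the opposite strand of Psmc6 its first base lay 227 bases before the start. The annotated Psmb6 gene begins at 70525324, inside the printed window. The Psmb6 match thus lies inside the annotated gene and before a later RefSeq start. A promoter window of 300 bases, which adds 50 bases after the start, was found for 39 of the 47 genes. TGACNNNGC was present in 2 of 12 core genes, 3 of 17 regulatory particle genes and 1 of 9 others, against 14.0% of all 27025 genes with a window. It was present in 4 of 22 genes that fell and in 2 of 16 tested genes that did not. CCAAT was present in 7 of 12 core genes (the untested Psmb11 among them), 5 of 17 regulatory particle genes and 1 of 9 others, against 41.1% of all genes. It was present in 8 of 22 genes that fell and in 5 of 16 tested genes that did not. The heat shock element, searched as GAANNTTC or TTCNNGAA, was present in 1 of 12, 1 of 17 and 2 of 9, against 17.0%. Matches to different motifs did not overlap in these windows, and a match of letters is a description and not a binding site.

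In the alpha ring 7 of 8 genes fell, with a median of -0.20. Psma2 had the lowest fold change of the whole set. It was at 159, 156 and 161 CPM in the 3 NL libraries and at 127, 122 and 128 CPM in the 3 LIP libraries. The groups were well apart, and the fall was 20.7% (log2 fold change -0.33 ± 0.04 SE, adjusted p = 3.875e-11). Psma7, another alpha subunit, was at 170, 192 and 182 CPM in NL and at 156, 146 and 148 CPM in LIP. The groups did not overlap, and Psma7 fell by 17.2% (-0.27 ± 0.04, adjusted p = 9.835e-08). Psma6 was at 150.2, 151 and 160 CPM in NL and at 136, 129 and 129 CPM in LIP, without overlap, a fall of 14.6% (-0.23 ± 0.04, adjusted p = 1.145e-06). Psma1 was at 187, 178 and 180 CPM in NL and 164, 152 and 153 CPM in LIP, also without overlap (-0.22 ± 0.04, adjusted p = 1.578e-06). Psma3 (-0.18), Psma4 (-0.16) and Psma5 (-0.15) fell less and likewise kept all LIP libraries below all NL libraries (the deposited counts of Psma3 were not all whole). Psma8, a meiosis-specific relative of Psma7, was near 5 CPM in both groups and is the core gene that did not pass: its log2 fold change was -0.02, with a 95% interval from -0.28 to 0.25.

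All 7 tested genes of the beta ring fell, with a median of -0.16. Psmb5, Psmb6 and Psmb7 encode the chymotrypsin-like, caspase-like and trypsin-like cutting sites. Psmb6 was at 128, 135 and 130 CPM in NL and at 114, 117 and 121 CPM in LIP. The groups were apart, and Psmb6 fell by 10.5% (-0.16 ± 0.04, adjusted p = 5.785e-04). Psmb7 was at 105, 116 and 115 CPM in NL and 103, 100 and 101 CPM in LIP, apart by a small gap (-0.14 ± 0.04, adjusted p = 0.00391). Psmb5 was at 98.2, 109 and 117 CPM in NL and 94.6, 95 and 101 CPM in LIP. Here the groups overlapped, since the lowest NL library lay below the highest LIP library, and the fall was called at a larger p (-0.16 ± 0.05, adjusted p = 0.0138). Without NL replicate 3, the highest Psmb5 library, the value was -0.10 and the call was lost (adjusted p = 0.108). It was also lost on leaving out NL replicate 2, LIP replicate 1 or LIP replicate 2, at adjusted p = 0.0742, 0.0649 and 0.0814. Psmb7 lost its call without NL replicate 2 (-0.11, adjusted p = 0.0651).

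Of the beta subunits without a cutting site, Psmb3 was at 139, 143 and 143 CPM in NL and at 116, 120 and 128 CPM in LIP. The LIP libraries were all lower, and Psmb3 fell by 14.6% (-0.23 ± 0.04, adjusted p = 2.323e-06). Psmb1 was at 191, 193 and 204 CPM in NL and 171, 164 and 177 CPM in LIP, a fall of 13% without overlap (-0.20 ± 0.04, adjusted p = 7.116e-06). Psmb2 was at 126, 127 and 124 CPM against 121, 110.3 and 109 CPM, close but without overlap (-0.15 ± 0.04, adjusted p = 0.0025). Psmb4 fell by 8.41% (-0.13), a call that was lost on leaving out NL replicate 2, NL replicate 3 or LIP replicate 2 (adjusted p = 0.0861, 0.0544 and 0.0561). Psmb11, the thymus-specific beta subunit, was at 0.0523 to 0.221 CPM, at or near the floor, and was not tested.

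The regulatory particle moved unevenly. Of the 6 ATPases, Psmc6 passed the test and the other 5 did not. Its promoter held TGACNNNGC far from the start. It was at 118, 115 and 121 CPM in NL and at 101, 97.9 and 91.7 CPM in LIP. The groups were well apart, and Psmc6 fell by 17.9% (-0.28 ± 0.04, adjusted p = 4.227e-08), a value next to those of the alpha ring. The other 5 ATPases lay between -0.09 and 0.05. Psmc2 was at 119, 112 and 118 CPM in NL and 111, 109 and 108 CPM in LIP, with no overlap (-0.09, adjusted p = 0.0563). Psmc3 was at 173, 190.2 and 180.0 CPM against 169.5, 176 and 167 CPM, with overlap (-0.08, adjusted p = 0.0685). Psmc4 was at 137, 133 and 136 CPM against 131, 127 and 131 CPM, without overlap (-0.06, adjusted p = 0.180). Psmc2 passed without NL replicate 2 (adjusted p = 0.0440), and Psmc3 passed on leaving out NL replicate 1 or LIP replicate 2 (0.0352 and 0.0400). Psmc5 was at -0.00 with a 95% interval from -0.08 to 0.08, and Psmc1 at 0.05 with an interval from -0.02 to 0.12.

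Among the 11 non-ATPase subunits 4 fell, with a median of -0.06 over the 11. Psmd8, a subunit of the lid, was at 202, 207 and 223 CPM in NL and at 181, 178 and 181 CPM in LIP. The groups were clearly separate, and Psmd8 fell by 14.7% (-0.23 ± 0.04, adjusted p = 5.201e-07). Psmd14, the deubiquitinase that removes ubiquitin chains as the substrate enters, was at 106, 101 and 106 CPM in NL and 93.2, 95.4 and 87.7 CPM in LIP. It fell by 11.7% without overlap (-0.18 ± 0.04, adjusted p = 2.964e-04). Psmd6 and Psmd13, further lid subunits, fell by smaller amounts. Psmd6 was at 84.3, 88.0 and 86.1 CPM against 82.0, 80.9 and 76.7 CPM (-0.11 ± 0.04, adjusted p = 0.0347). Psmd13 was at 102, 106 and 107 CPM against 97.1, 96.4 and 99.5 CPM (-0.10 ± 0.04, adjusted p = 0.0366). In both, every LIP library lay below every NL library, by a narrow margin. Psmd6 did not pass on leaving out NL replicate 2, NL replicate 3 or LIP replicate 3 (adjusted p = 0.165, 0.0812 and 0.166). Psmd13 did not pass on leaving out NL replicate 2, NL replicate 3, LIP replicate 1 or LIP replicate 2 (0.128, 0.167, 0.0884 and 0.106).

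The large scaffold subunits and the ubiquitin receptor did not pass in either direction. Psmd1 was at -0.05 (95% interval -0.12 to 0.02) and Psmd2 at 0.04 (-0.03 to 0.11). Psmd4, which binds ubiquitin chains, was at -0.01 (-0.09 to 0.07). Psmd3, Psmd7, Psmd11 and Psmd12, of the lid, lay between -0.08 and 0.06, and Psmd11 had all LIP libraries above all NL libraries, at 100.4 to 101.6 against 98.3 to 99.98 CPM (against 19.9% of all tested genes).

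Psmd5, Psmd9 and Psmd10 are chaperones that help assemble the base of the regulatory particle and leave before the complex is complete. All 3 fell, with a median of -0.17. Psmd10, also called gankyrin, was at 27.8, 26.3 and 26.4 CPM in NL and at 22.3, 22.0 and 23.5 CPM in LIP, without overlap (-0.25 ± 0.06, adjusted p = 0.00138). Psmd5 was at 86.5, 87.9 and 89.8 CPM against 82.95, 77.7 and 75.1 CPM, without overlap (-0.17 ± 0.04, adjusted p = 0.00143). Psmd9 was at 35.1, 38.5 and 39.3 CPM against 35.2, 33.3 and 33.7 CPM, where the lowest NL library fell inside the LIP range (-0.15 ± 0.06, adjusted p = 0.0382). The Psmd9 call was lost on leaving out NL replicate 2, NL replicate 3, LIP replicate 2 or LIP replicate 3 (adjusted p = 0.150, 0.197, 0.119 and 0.0841).

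Psme1 and Psme2 encode the interferon-inducible activator that opens the core for peptide production, and both fell. Psme1 was at 238, 245 and 241 CPM in NL and at 218, 211 and 225 CPM in LIP, without overlap (-0.15 ± 0.03, adjusted p = 3.151e-04). Psme2 was at 123, 132 and 127 CPM against 119, 116 and 113 CPM, without overlap (-0.13 ± 0.04, adjusted p = 0.00382). The Psme2 call was lost without NL replicate 2 (-0.11, adjusted p = 0.0634). With length corrected for, neither Psme1 (-0.04) nor Psme2 (-0.01) was called (edgeR adjusted p = 0.412 and 0.918). With length and GC content Psme1 was called lower (0.0140) and Psme2 was not (0.384). The deposited counts of Psme2 and of its near copy Psme2b were not whole numbers, so reads could have been divided between them. Psme2b was at 4.16, 4.14 and 4.21 CPM in NL and 5.75, 4.97 and 4.49 CPM in LIP, higher in every LIP library but not past the test (0.28 ± 0.14, adjusted p = 0.118). It was called higher with length (adjusted p = 0.0314), with length and GC content (0.0387) and in TPM (0.00491).

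The nuclear activator Psme3 and the large activator Psme4 did not pass the test, and their libraries overlapped. Psme3 was at 256, 246 and 241 CPM in NL and at 251, 249 and 253 CPM in LIP (0.02, 95% interval -0.04 to 0.09). Psme4 was at 90.6, 87.6 and 91.6 CPM in NL and at 90.6, 92.0 and 87.8 CPM in LIP (0.00, 95% interval -0.08 to 0.08). Psmf1, the proteasome inhibitor, was the gene of the set that rose. It was at 50.2, 48.0 and 45.6 CPM in NL and at 50.8, 52.8 and 53.2 CPM in LIP. The LIP libraries were all higher by a narrow gap, and the rise was 9.16% (0.13 ± 0.05, adjusted p = 0.0397). The deposited counts of Psmf1 were not all whole. Its call was lost on leaving out NL replicate 2, NL replicate 3, LIP replicate 2 or LIP replicate 3 (adjusted p = 0.0897, 0.209, 0.102 and 0.104), with length corrected for (0.0604), and in DESeq2 (0.143).

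Of the 4 chaperones that assemble the core, Psmg4 fell. It was at 26.1, 28.2 and 27.0 CPM in NL and at 24.2, 21.2 and 23.9 CPM in LIP, without overlap (-0.23 ± 0.06, adjusted p = 0.00336), and it did not pass without LIP replicate 2 (-0.17, adjusted p = 0.0577). With length corrected for, Psmg4 was at -0.01 and not called (edgeR adjusted p = 0.889). With length and GC content it was at -0.06 (0.48). Psmg1 was at 38.2, 38.4 and 38.1 CPM in NL and 35.9, 38.6 and 40.8 CPM in LIP. Psmg2 was at 38.5, 38.2 and 39.1 CPM against 39.3, 35.6 and 36.7 CPM, and Psmg3 at 19.6, 20.7 and 21.2 CPM against 17.9, 19.4 and 20.6 CPM. These 3 overlapped between the groups and did not pass, at 0.01, -0.05 and -0.09. Psmc3ip was at -0.08 (adjusted p = 0.495).

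Levels can be compared between genes in TPM, which divides by transcript length. In NL, transcripts of core subunits were more abundant than those of most regulatory particle subunits. The alpha genes without Psma8 had NL mean levels from 160 TPM (Psma5) to 340 TPM (Psma7), with a median of 255 TPM. The beta genes without Psmb11 ran from 210.2 TPM (Psmb7) to 360 TPM (Psmb3), with a median of 270.2 TPM. The ATPases ran from 112 TPM (Psmc2) to 191 TPM (Psmc3), and the non-ATPase subunits from 81.7 TPM (Psmd11) to 242 TPM (Psmd8). The assembly chaperones were lower, with Psmd9 at 24.6 and Psmd5 at 74.0 TPM and the Psmg genes between 44.3 TPM (Psmg3) and 101 TPM (Psmg4). Psme1 was at 444 TPM and Psme4 at 23.2 TPM.

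**Figure D3:**
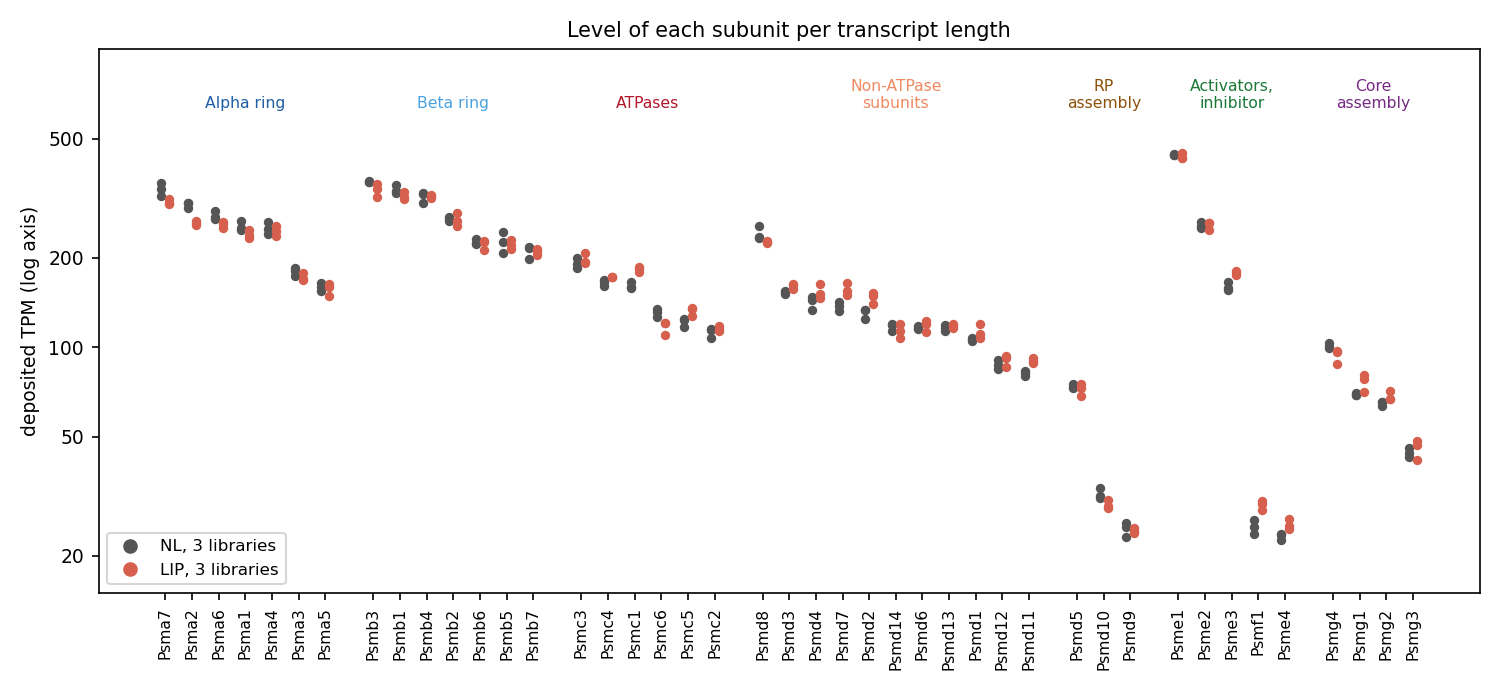
Deposited TPM (vertical log axis) of each gene in each of the 3 NL and 3 LIP libraries, by part of the complex; Psma8, Psmb11, Psme2b and Psmc3ip are not drawn. Core genes have NL means between 160 and 360 TPM and most regulatory particle genes lie lower.

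The balance between the transcripts of the parts moved on this scale and in counts. The summed TPM of the core divided by that of the regulatory particle was 1.52, 1.53 and 1.52 in the NL libraries and 1.41, 1.37 and 1.43 in the LIP libraries. The ratio of summed counts was 0.830, 0.842 and 0.834 in NL and 0.771, 0.746 and 0.779 in LIP. In both ratios all LIP libraries lay below all NL libraries, a description with no test. Neither ratio was corrected for a change that follows transcript length, and length differed between the parts. The core sum was 3644, 3741 and 3764 TPM in NL and 3532, 3549 and 3549 TPM in LIP, and the regulatory particle sum 2400, 2443 and 2478 TPM in NL and 2504, 2599 and 2484 TPM in LIP. In TPM the regulatory particle sum was higher in every LIP library, while in counts 8 of its 20 genes fell and 12 did not pass. TPM is compositional, and the median of all tested genes was itself shifted by 0.11 (log2) in this unit. After each library was centred on its median gene, the regulatory particle median was -0.06, with 5 falls and 0 rises, and the core had 10 falls and 0 rises. By contrast, the ratio of constitutive (Psmb5, Psmb6, Psmb7) to immunoproteasome catalytic subunits was 0.850, 0.908 and 0.887 in NL and 0.853, 0.884 and 0.859 in LIP, with overlapping groups.

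Transcript length moved with the result and differed between the parts. Core transcripts had a median effective length of 911 bases, regulatory particle transcripts 1496 bases, and all tested genes 2766 bases. Among other tested genes under 1000 bases, 46.6% were called lower, with a median of -0.16, and 10 of 10 core genes of that length fell. The 18 genes of the set in this class had 13 falls and a median of -0.15. Among other genes of 1000 to 1500 bases 24.1% were lower, with a median of -0.07, while 4 of 4 core and 6 of 10 regulatory particle genes fell, and the 14 genes of the set in this class had a median of -0.16. Above 2000 bases 11.1% of other genes were lower and 18.0% higher, and 1 of 8 genes of the set fell. With a length term fitted on genes outside the set, 6 of 15 core genes fell (median -0.07), and with length and GC content 5 of 15 (median -0.08). In the regulatory particle 6 and 7 of 20 genes then fell, and 2 and 3 rose. Over all tested genes, 13.6% were lower and 13.1% higher with length, and 12.3% and 12.1% with length and GC content.

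**Figure D4:**
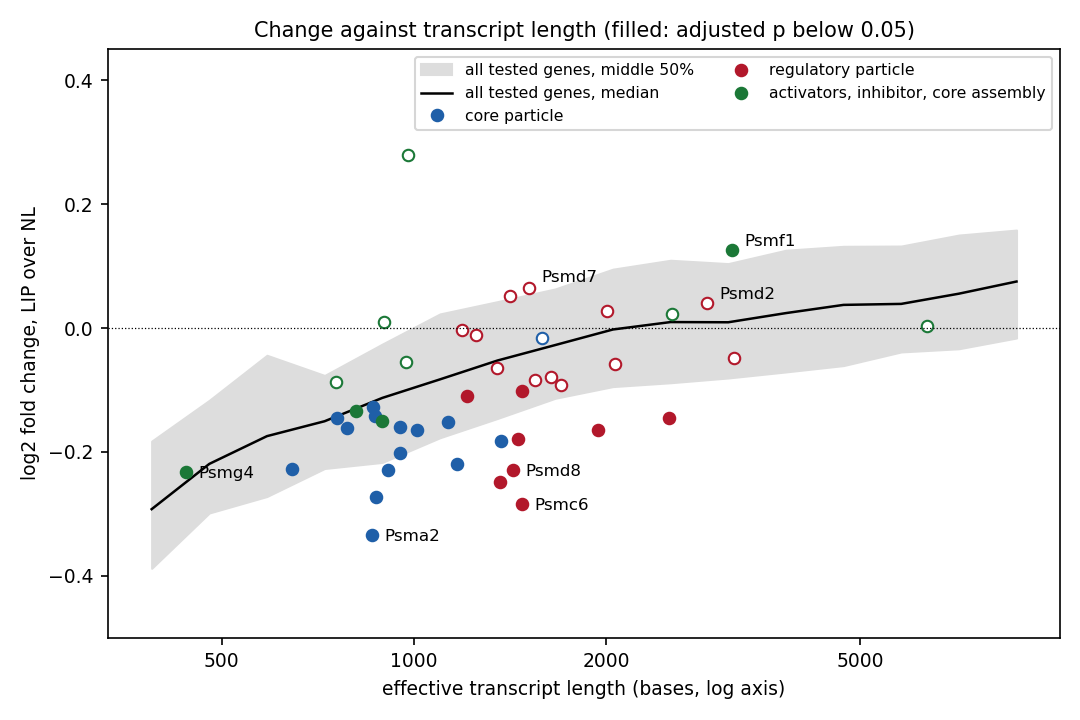
Log2 fold change (vertical axis) against effective transcript length in bases (log axis) for the genes of the set, over the median (line) and the middle 50% (band) of all tested genes. The line lies below 0 for short transcripts, where the core genes are, and above 0 for the longest ones.

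The set of genes that stayed lower was read against these corrections. Of the 25 that fell, 12 also fell with the length term, 11 with length and GC content, and 9 with both: Psma1, Psma2, Psma6, Psma7, Psmb1, Psmc6, Psmd5, Psmd8 and Psmd9. With the deposited TPM, 4 of the 25 were called lower: Psma2, Psma6, Psma7 and Psmc6. These same 4 kept their call under all 21 alternatives run. For the 3 catalytic subunits, the call of Psmb5, Psmb6 and Psmb7 was lost with the length term, and Psmb7 turned to 0.07 with length and GC content (not called).

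**Figure D5:**
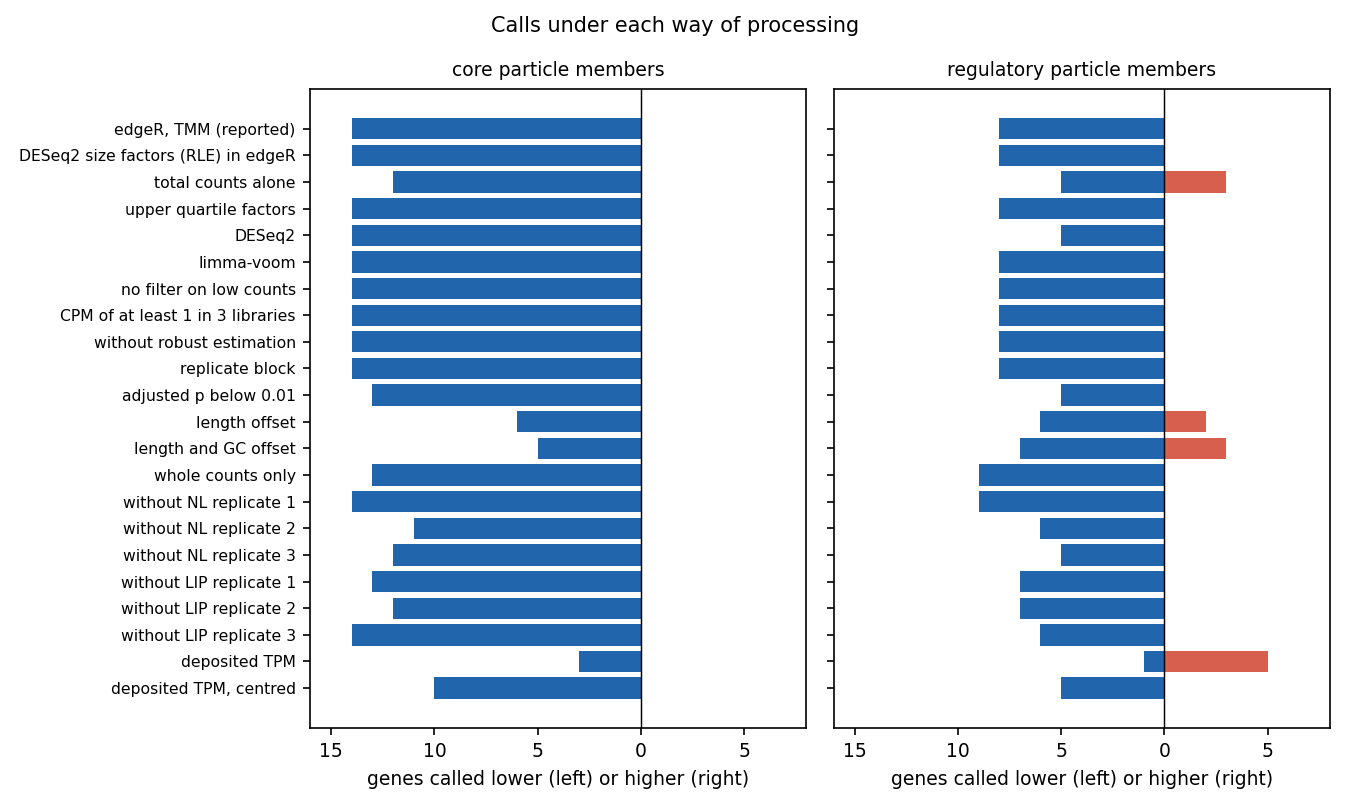
Number of genes called lower and higher in the core and in the regulatory particle (horizontal axis) under each alternative treatment of the counts. Core falls number 14 in the test as described, 6 and 5 with the length terms, and 3 in uncentred TPM.

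The genes around the proteasome were taken from lists of related functions. The 3 immunoproteasome catalytic subunits also fell: Psmb8 was at -0.14 (adjusted p = 8.049e-04), Psmb9 at -0.10 (0.0366) and Psmb10 at -0.12 (0.0137). Psmb8 was at 235, 244 and 256 CPM in NL and at 224, 215 and 227 CPM in LIP. The groups were apart, and none of the 3 was called with the length term, while Psmb8 and Psmb10 were called lower with length and GC content (adjusted p = 0.00795 and 0.0270). Psmb9 lost its call when any of the libraries except LIP replicate 3 was left out (adjusted p = 0.0817 to 0.211), and Psmb10 without NL replicate 3 (0.0937). Of 6 tested proteasome genes with other symbols, 4 fell: Pomp (-0.26), the maturation factor of the core, Sem1 (-0.21), a lid subunit, Akirin2 (-0.15), which carries proteasomes into the nucleus, and Txnl1 (-0.15), a proteasome-bound thioredoxin. Txnl1 was not called with length and GC content (-0.04, adjusted p = 0.429), and Sem1 with neither length term (0.746 and 0.133). Pomp was at 113, 114 and 111 CPM in NL and at 97.1, 90.5 and 94.0 CPM in LIP (adjusted p = 2.386e-07), with every LIP library lower, and it kept its call in every alternative.

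Genes that supply ubiquitin or hand substrates to the proteasome were also read. Rps27a, which encodes a ubiquitin fused to a ribosomal protein, was at 896, 937 and 907 CPM in NL and at 765, 751 and 776 CPM in LIP, without overlap, a fall of 16.4% (-0.26, adjusted p = 6.772e-09). With length and GC content Rps27a was at -0.05 and not called (adjusted p = 0.172). Uba6 (-0.29), a ubiquitin-activating enzyme, and Ubb (-0.16), a polyubiquitin gene named after its value was seen, fell as well. Of 12 ubiquitin enzymes and shuttles that bind the proteasome, 4 fell and 1 rose, with a median of -0.03. These counts were 2 and 3 with total counts alone, 1 and 0 in DESeq2, and 0 and 6 in TPM. The ligase Ube3a (-0.20) and the stress-induced Zfand2a (-0.22) fell, as did the deubiquitinase Usp14 (-0.11) and the shuttle Ubqln1 (-0.09). Ube3a was not called with length and GC content (-0.09, adjusted p = 0.118). Zfand2a lost its call without NL replicate 2 (adjusted p = 0.122), Usp14 on leaving out NL replicate 1, NL replicate 2 or LIP replicate 3 (0.0728 to 0.129), and Ubqln1 without any of the libraries except LIP replicate 3 (0.0560 to 0.105).

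Of 10 tested genes in the NRF1 and NRF2 control of proteasome genes, 0 fell (also 0 at an unadjusted p below 0.05 in edgeR) and 2 rose. Of all tested genes 15.8% fell and 14.1% rose, so the count of rises was near the general share. The list had a median length of 3192 bases, and of genes outside the set over 2000 bases 11.1% fell and 18.0% rose. Nfe2l1, which encodes NRF1, was at 111, 114 and 114 CPM in NL and at 117, 131 and 122 CPM in LIP. The LIP libraries were all higher (0.13 ± 0.04, adjusted p = 0.00652), and the call was lost without LIP replicate 2 (0.09, adjusted p = 0.122) and with length and GC content. Mafg, a small MAF partner of these factors, was at 78.4, 78.4 and 75.9 CPM in NL and 88.0, 88.7 and 88.2 CPM in LIP, without overlap (0.19 ± 0.04, adjusted p = 2.028e-04). With length and GC content 1 gene of the list rose and 1 fell, and in TPM 6 rose. Of 8 tested genes of Vcp and its cofactors, which extract substrates for the proteasome, 0 were called by edgeR, 0 had an unadjusted p below 0.05, and DESeq2 and limma-voom called 0.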

How the data were processed

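RNA of 6 libraries (3 LIP, 3 NL) was compared. The deposited table gave, per the file headers, the authors' estimated count, FPKM and TPM of each gene and library. Between 86.3% and 86.8% of the deposited counts in a library were whole numbers. Per the submitters' processing notes, STAR, HTSeq and GRCm38 were used, with no versions or roles stated. Which tool estimated the counts is unstated there. Another 6 columns of group means were not used.

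The test was planned for counts, so the estimated counts were rounded. Genes were filtered with filterByExpr and scaled with TMM in edgeR 4.0.16 (R 4.3.3), and LIP was compared with NL by the robust quasi-likelihood test with no covariate besides group. Benjamini-Hochberg adjustment ran over the 12564 tested genes, and calls were made at an adjusted p below 0.05. Intervals are 95% intervals of the log2 fold change.

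The set members and all gene lists were chosen with earlier results of these data known. Any gene of the set may be named. Values of every library are given for Psmb5, Psmb6, Psmb7, Psme1 to Psme4, Psmf1 and the 4 genes with the smallest p in each of the alpha ring, beta ring, ATPases, non-ATPase subunits and core assembly chaperones, and up to 4 tested genes are named per related list. Values of Psmd5, Psmd9, Psmd10, Psmd11, Psme2b and of some related genes in every library were added after they were seen, as were the marker genes named.

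Effective length was derived from the deposited FPKM and counts. The length correction was a lowess curve (span 0.3) fitted on genes outside the set, the ribosomal genes and the respiratory chain, and GC content came from GENCODE M21 transcripts for 98.5% of tested genes. DESeq2 1.42.0, limma 3.58.1, other scalings and filters, a replicate block, genes of whole counts and leaving out each library were the other alternatives. Deposited TPM was tested with limma on log2(TPM + 1), which understates changes of low genes. The scripts were tested on simulated data, where 46% of 100 genes changed 1.15-fold and 89% of 100 changed 1.5-fold were recovered. The changed genes were drawn from all tested genes, so these shares are not those of the set. A gene of the set that did not pass may still differ, within its interval. That interval was narrow for Psmc5 (-0.08 to 0.08) and wide for Psma8 (-0.28 to 0.25). Promoters are from RefSeq (GRCm38.p6). Some genes of the related lists are not reported here.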

Additional observations from a re-analysis of the deposited data

How the results depend on the processing

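The count of core falls was 14 and stayed between 11 and 14 when each library was left out, but was 6 with the length term, 5 with length and GC content and 3 in deposited TPM. Its median of -0.16 was -0.12 with total counts alone, -0.067 with length, -0.081 with length and GC content, -0.034 in TPM and between -0.19 and -0.15 with a library left out. The 8 regulatory particle falls became 5 with total counts alone, DESeq2, an adjusted p below 0.01 or centred TPM, 1 in TPM, and 5 (without NL replicate 3) to 9 with a library left out. Its 0 rises became 3 with total counts alone, 2 with length, 3 with length and GC content and 5 in TPM. Its median of -0.08 was -0.037 with total counts alone, -0.046 with length, -0.051 with length and GC content, and reversed to 0.047 in TPM, in which all genes were shifted by 0.11. For the other 10 genes the 3 falls became 0 with length, 1 with length and GC content and 0 in TPM, and the 1 rise became 0 with DESeq2, an adjusted p below 0.01, whole counts or centred TPM, 4 in TPM, and 0 to 1 with a library left out. Over all genes, 1984 falls and 1776 rises became 1301 and 2756 with total counts alone, 1300 and 1160 with DESeq2, and 540 and 4568 in TPM, while rises were 1148 at an adjusted p below 0.01. The share of falls among calls was 52.8%, against 32.1% with total counts alone and 10.6% in TPM. Except for fewer tested genes with whole counts, the cause was not tested. TPM and its centring were chosen after the data were seen. Among genes called in either fit, the sign turned in TPM for Psmb4 (0.0044), Psmc5 (0.13, called), Psmd13 (0.027), Psmd6 (0.0195), Psmb10 (0.013), Psmb9 (0.026), Usp14 (0.0101) and Ubqln1 (0.031). Among these, with length it turned for Psmb9 (0.035) and Sem1 (0.023), and with length and GC content for Psmb7 (0.065), Sem1 (0.083) and Usp14 (0.0011). Over all 21 alternatives, a further 47 values of set genes turned sign where neither fit called them.

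Replicate numbers did not pair the libraries (correlations of same-numbered deviations 0.038, -0.017 and -0.127). With the replicate block 14 core, 8 regulatory particle and 3 other genes were lower and 1 was higher. With 3 pools per group and 4 residual degrees of freedom, some calls depended on single libraries. Psmb4, Psmb5, Psmd6, Psmd9, Psmd13 and Psmf1 each lost the call on leaving out any of 3 or 4 libraries. Size alone did not mark such calls: Psmb6 and Psme1 fell by 10.5% and 9.84% and kept theirs with each library left out.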

Other observations

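Heat shock genes, whose products hold and refold damaged proteins upstream of the proteasome, fell in number: 10 of 11 tested genes were lower and 0 higher, with a median log2 fold change of -0.41. Hspa1a, an inducible chaperone, was at 35.4, 33.6 and 36.0 CPM in NL and at 1.11, 0.680 and 0.993 CPM in LIP (-5.24, edgeR adjusted p = 4.782e-43). Its neighbour Hspa1b was at 82.6, 81.8 and 80.8 CPM in NL and 3.21, 2.04 and 2.51 CPM in LIP (-4.99). The deposited counts of Hspa1a and Hspa1b were not all whole, so reads could have been divided between them. Hsph1 (-0.74) and Dnaja1 (-0.66), co-chaperones of the same system, also fell. The groups did not overlap for these 4 genes. The count of falls was 10 with the length terms and 9 in TPM, where 1 gene rose.

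The COP9 signalosome, a complex built like the lid of the regulatory particle, had 6 of 10 genes lower and 0 higher, with a median of -0.14. Cops9 was at 36.8, 39.8 and 37.2 CPM in NL and at 27.4, 28.8 and 29.8 CPM in LIP, all LIP libraries lower (-0.40, edgeR adjusted p = 7.064e-08). Cops4 (-0.25), Cops2 (-0.19) and Cops3 (-0.17) fell as well. The count of falls was 5 with the length term, 4 with length and GC content and 2 in TPM, and 1, 0 and 2 genes rose in these. Cops9 and Cops4 kept their calls under all 21 alternatives.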
